A study of Mus musculus with 6 samples.

Results

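The genes described here are the Norrin and Wnt pathway genes Ndp, Fzd4, Tspan12, Lrp5, Lrp6, Lef1, Axin2, Apcdd1 and Ctnnb1, which are 9 of the 20822 genes in the deposited single-cell table. They were chosen by name for their place in the pathway, and all 9 were in the table. The cells came from retinas of mice at postnatal day 14 (P14) with oxygen-induced retinopathy (OIR), a model in which pups are kept in high oxygen, lose part of their retinal capillaries and grow abnormal vessels after return to room air. Both genotypes went through this exposure, so every value below is from OIR retina. The eNOS+/+ mice were C57BL/6J wildtype animals, and the eNOS-/- mice carried a homozygous knockout allele of Nos3, the gene of endothelial nitric oxide synthase (eNOS), in the whole body. Each genotype had 3 replicates in the labels, and each replicate was 1 Drop-seq library made from 3 to 5 pooled retinas after enrichment of CD31+ cells with magnetic beads. The p-values below therefore measure the spread between 3 pools and 3 pools, and values of single animals were not measured.

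Norrin, the protein made from Ndp, is a secreted ligand that binds the receptor Frizzled4 (Fzd4) on retinal endothelial cells (ECs). The co-receptors Lrp5 and Lrp6 and the tetraspanin Tspan12 take part in the receptor complex, and its activation keeps beta-catenin (Ctnnb1) from being degraded, so that it can act in the nucleus with TCF/LEF factors such as Lef1. Axin2 and Apcdd1 are target genes of the pathway that act back on it as inhibitors. In the retina this signal is known for its part in forming the deep capillary layers and the blood-retina barrier, and Müller glia are a known source of Norrin.

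The table held 8944 cells with 10361314 unique molecular identifiers (UMIs, each standing for a counted transcript), and the 6 libraries held between 617246 and 3350799 UMIs. The deposited annotation put 5925 cells in the 3 EC subtypes, with 1428 Tip ECs, 3335 Structural ECs and 1162 Proliferative ECs, and the others in 7 further types. UMIs were summed for each cell type and library, and a level is given as counts per 1000000 UMIs of that sum (CPM). The 10 endothelial markers summed to 7603 to 9005 CPM in the ECs of the 6 libraries, and the Müller glia markers to 9049 to 19070 CPM in the cells named Neuroglia. The cells named Optc+ had 1926 to 7602 CPM of Optc, the gene of opticin, and also 3789 to 5167 CPM of the Müller glia markers. Of these 6 markers, 1 had 0 UMIs in Optc+ cells, and a large part of the sum was from Dkk3, whose level is given below. The UMIs of Nos3 did not separate the genotypes: its level in all ECs was 19.4, 36.6 and 23.6 CPM in the eNOS+/+ libraries and 21.2, 16.1 and 32.8 CPM in the eNOS-/- libraries. The genotype names below are therefore those of the labels, with no check from this gene. The summed level of 7 mural cell markers in the ECs was 23.0 to 96.5 CPM in 5 libraries and 2232 CPM in eNOS-/- replicate 3, which stood apart. The part of mural RNA in the EC values of that replicate was not tested, and values without it are given where they differ.

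To show letters of the loci discussed below, promoter windows of 300 bases were read from RefSeq in build GRCm38.p6, from 250 bases before to 50 bases after a listed start site. Of the 9 genes, 6 were matched, with 10 windows in all. TCF/LEF factors bind a short motif, which was searched on both strands as the letters CTTTG followed directly by AA, AT, TA or TT. These letters were in 16.9% of all 32851 windows and in 2 of the 10 windows of these genes. The windows printed are those of Lef1 and Axin2, which were lower in Tip ECs than in Structural ECs, and of Fzd4, which was higher there. Capitals mark the TCF/LEF letters. The Lef1 window is at chr3:131156044-131156343 on the plus strand, at a start site inside the gene and downstream of its first listed ones. It holds 1 match, read on the minus strand. The Lef1 windows at its other listed start sites, not printed, had no match. The other window with a match was that of Ndp. The Axin2 window, at chr11:108920099-108920398 on the plus strand, has a GC content of 70.0% and no match. The Fzd4 window, at chr7:89404116-89404415 on the plus strand, also has no match. The sequences are written 5′ to 3′.
Lef1: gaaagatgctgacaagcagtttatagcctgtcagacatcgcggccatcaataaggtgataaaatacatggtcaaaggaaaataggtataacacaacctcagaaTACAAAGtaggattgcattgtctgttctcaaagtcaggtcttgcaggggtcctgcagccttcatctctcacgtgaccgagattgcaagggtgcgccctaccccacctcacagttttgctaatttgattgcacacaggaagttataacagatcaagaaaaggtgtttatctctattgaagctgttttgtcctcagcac
Axin2: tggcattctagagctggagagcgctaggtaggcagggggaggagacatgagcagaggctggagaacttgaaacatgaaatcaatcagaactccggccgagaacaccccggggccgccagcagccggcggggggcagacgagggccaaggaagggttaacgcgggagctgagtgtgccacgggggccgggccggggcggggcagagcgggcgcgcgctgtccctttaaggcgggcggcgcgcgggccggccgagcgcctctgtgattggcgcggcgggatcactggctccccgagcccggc
Fzd4: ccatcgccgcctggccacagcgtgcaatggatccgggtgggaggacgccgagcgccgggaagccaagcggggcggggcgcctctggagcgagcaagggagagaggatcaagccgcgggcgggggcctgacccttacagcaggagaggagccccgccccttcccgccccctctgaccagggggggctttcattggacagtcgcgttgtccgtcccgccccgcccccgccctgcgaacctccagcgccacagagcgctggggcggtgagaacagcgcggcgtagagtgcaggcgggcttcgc
The UMIs come from the 3′ ends of transcripts and do not tell which start site was used. A match is a run of letters and not a measured binding site.

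The ligand was nearly undetected. Ndp (X chromosome of GRCm38, 16885521 to 16911774, minus strand) had 9 UMIs in 7 of the 8944 cells, all of them in eNOS-/- replicate 2. Of these, 6 UMIs were in 4 of the 184 Neuroglia cells, which is 2.17% of them (95% exact binomial interval 0.595% to 5.47%). Each of these 4 cells also had a UMI of a Müller glia marker and 0 of them had one of an astrocyte marker. They held 436 to 1199 UMIs each, and Neuroglia averaged 15080 CPM of the Müller glia and 790 CPM of the astrocyte markers. Both outcomes are likely for any Neuroglia cell of that depth, so they do not name these cells. The other 3 UMIs of Ndp were in 2 Neurons and in 1 Structural EC. That EC had 7384 UMIs in all and also carried a Müller glia UMI, which is likely at that depth with 531 CPM of these markers in Structural ECs. In the Neuroglia of eNOS-/- replicate 2 the level of Ndp was 100 CPM in 86 cells. The other 4 libraries with Neuroglia had 0 UMIs of Ndp in 27, 10 and 28 cells (eNOS+/+) and 33 cells (eNOS-/- replicate 1), where a count of 0 allows up to 125, 431, 179 and 104 CPM. Each of these limits is for 1 library alone and lies above 100 CPM, and the 4 libraries were not pooled. With all 9 UMIs in 1 library, no difference between the genotypes can be read from Ndp. Among the 1428 Tip ECs no cell had a UMI of Ndp, and a limit of 3 counts allows up to 0.21% of cells with one. Intervals and limits of this kind cover counting error only.

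The receptor was found mainly in ECs. Fzd4 (chromosome 7, 89404355 to 89413134, plus strand) was at 64.3, 86.8 and 88.7 CPM in all ECs of the eNOS+/+ libraries and at 74.3, 61.4 and 81.9 CPM in those of the eNOS-/- libraries. It was highest in Tip ECs, the cells that lead a sprout, with 105 ± 22.6 CPM (SD, n = 6) against 63.4 ± 13.0 in Structural ECs and 63.7 ± 23.1 in Proliferative ECs. By library, the Tip EC level was 96.8, 123 and 101 CPM in eNOS+/+ and 108, 68.5 and 133 CPM in eNOS-/-, and the Structural EC level was 49.9, 52.6 and 84.4 CPM in eNOS+/+ and 65.5, 57.2 and 71.0 CPM in eNOS-/-. Tip ECs were above Structural ECs in 6 of 6 libraries, 1.66-fold by the means, and above Proliferative ECs in 6 of 6. The means of Tip and Structural ECs differed by more than their summed SDs. Of the 6264 genes with at least 200 UMIs in ECs, 8.57% were higher in Tip than in Structural ECs in every library and 10.8% were higher than in Proliferative ECs in every library. The subtypes were clustered on the same UMIs, so differences between them are a description without a test.

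Tspan12 (chromosome 6, 21771395 to 21852515, minus strand), the tetraspanin partner of Fzd4, showed no such order. Its level in all ECs was 127, 130 and 125 CPM in eNOS+/+ and 141, 112 and 117 CPM in eNOS-/-, or 125 ± 10.2 CPM (SD, n = 6). The subtypes lay at 135 ± 13.3 CPM in Tip, 124 ± 24.5 in Structural and 125 ± 33.0 in Proliferative ECs, closer to each other than the spread between libraries.

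The co-receptors had few UMIs and wide spreads. Lrp5 (chromosome 19, 3584828 to 3686564, minus strand) was at 14.6, 41.1 and 43.3 CPM in all ECs of the eNOS+/+ libraries and at 32.0, 23.5 and 36.9 CPM in those of the eNOS-/- libraries. Its means were 38.7 ± 21.3 CPM in Tip, 27.6 ± 7.87 in Structural and 32.0 ± 15.03 in Proliferative ECs (SD, n = 6). Lrp6 (chromosome 6, 134446476 to 134566965, minus strand) was at 43.7, 76.2 and 52.5 CPM in eNOS+/+ and at 59.6, 47.0 and 38.9 CPM in eNOS-/-, with subtype means of 54.6 ± 19.5, 56.9 ± 17.5 and 44.9 ± 23.7 CPM. Tip ECs exceeded Structural ECs in 4 of 6 libraries for Lrp5 and in 3 of 6 for Lrp6, so neither co-receptor followed the order of Fzd4. For Lrp6 these were 0 of the 3 eNOS+/+ and 3 of the 3 eNOS-/- libraries, and a joint test of genotype by subtype is given below.

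Ctnnb1 (chromosome 9, 120929216 to 120960507, plus strand), the transducer of the pathway, was at 67.9, 25.9 and 31.5 CPM in all ECs of eNOS+/+ and at 53.6, 51.1 and 30.7 CPM in those of eNOS-/-. The libraries of eNOS-/- lay between the lowest and the highest of eNOS+/+. Its subtype means were 46.9 ± 24.5, 45.5 ± 14.0 and 34.6 ± 20.7 CPM in Tip, Structural and Proliferative ECs. In the GENCODE annotation the exons of Ctnnb1 share 759 bases with those of Ulk4 on the opposite strand, and 475 of these lie in the last 1000 bases of the transcript region. Whether strand was used in counting is not given in the sources used here, so the values of Ctnnb1 are uncertain to that extent. Ulk4 had 37 UMIs in the table beside 422 of Ctnnb1.

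The nuclear factor and the target genes showed the opposite order to Fzd4. Lef1 (chromosome 3, 131110471 to 131224356, plus strand), a DNA-binding partner of beta-catenin and itself a target of the pathway, was at 226, 235 and 229 CPM in all ECs of eNOS+/+ and at 270, 216 and 260 CPM in those of eNOS-/-. In Structural ECs it was at 302, 352 and 261 CPM in eNOS+/+ and at 333, 235 and 292 CPM in eNOS-/-, and in Tip ECs at 203, 118 and 192 CPM and at 209, 204 and 217 CPM. Structural ECs were above Tip ECs in 6 of 6 libraries, with 296 ± 43.6 against 190 ± 36.7 CPM (SD, n = 6), a ratio of 1.55. Structural ECs also had higher mean levels of markers of several other cell types than Tip ECs. The mean summed levels were 4808 against 87.3 CPM for 3 red cell markers and 711 against 64.9 CPM for the 7 mural markers. They were 531 against 177 CPM for the Müller glia markers and 194 against 2.88 CPM for 5 B-lineage markers. Over the libraries, the red cell markers in Structural ECs ran from 19.96 to 12530 CPM and the mural markers from 31.4 to 3857 CPM. The medians of the mural markers there were 80.6 CPM in eNOS+/+ and 172 CPM in eNOS-/-, so the highest value drove their mean. The part of these markers in the differences between these subtypes was not tested. Structural ECs were also above Proliferative ECs (Lef1 at 189 ± 44.8 CPM) in 6 of 6 libraries, and both differences were larger than the summed SDs. The share of genes with these orders in every library was 9.77% for Structural over Tip and 7.34% for Structural over Proliferative ECs.

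Axin2 (chromosome 11, 108920349 to 108950783, plus strand), a scaffold of the complex that degrades beta-catenin, was at 41.2, 27.4 and 26.9 CPM in all ECs of eNOS+/+ and at 31.1, 23.9 and 20.5 CPM in those of eNOS-/-. It was at 46.1, 5.34 and 12.6 CPM in Tip ECs of eNOS+/+ and at 5.98, 16.8 and 14.0 CPM in those of eNOS-/-, from 1 to 12 UMIs a library. In Structural ECs it was at 44.9, 32.4 and 31.5 CPM in eNOS+/+ and at 37.5, 25.9 and 22.4 CPM in eNOS-/-. The means were 16.8 ± 15.04 CPM in Tip, 32.5 ± 8.07 in Structural and 33.7 ± 6.61 in Proliferative ECs (SD, n = 6). Structural and Proliferative ECs were each above Tip ECs in 5 of 6 libraries. The exception was eNOS+/+ replicate 1, and the ratio of Structural to Tip ECs was 1.93 with it and 2.74 without it. This difference was smaller than the summed SDs.

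Apcdd1 (chromosome 18, 62922231 to 62961179, plus strand), a membrane inhibitor of Wnt signals, was at 327, 535 and 449 CPM in all ECs of eNOS+/+ and at 471, 344 and 434 CPM in those of eNOS-/-. Its subtype means were 350 ± 75.1 CPM in Tip, 470 ± 99.7 in Structural and 422 ± 83.6 in Proliferative ECs (SD, n = 6). By library, the Tip EC level was 249, 433 and 349 CPM in eNOS+/+ and 325, 305 and 442 CPM in eNOS-/-, beside 337, 579 and 510 CPM and 570, 383 and 441 CPM in Structural ECs. Structural ECs exceeded Tip ECs in 5 of 6 libraries, and in eNOS-/- replicate 3 the values were level. The ratio of 1.34 was within the summed SDs.

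**Figure D1:**
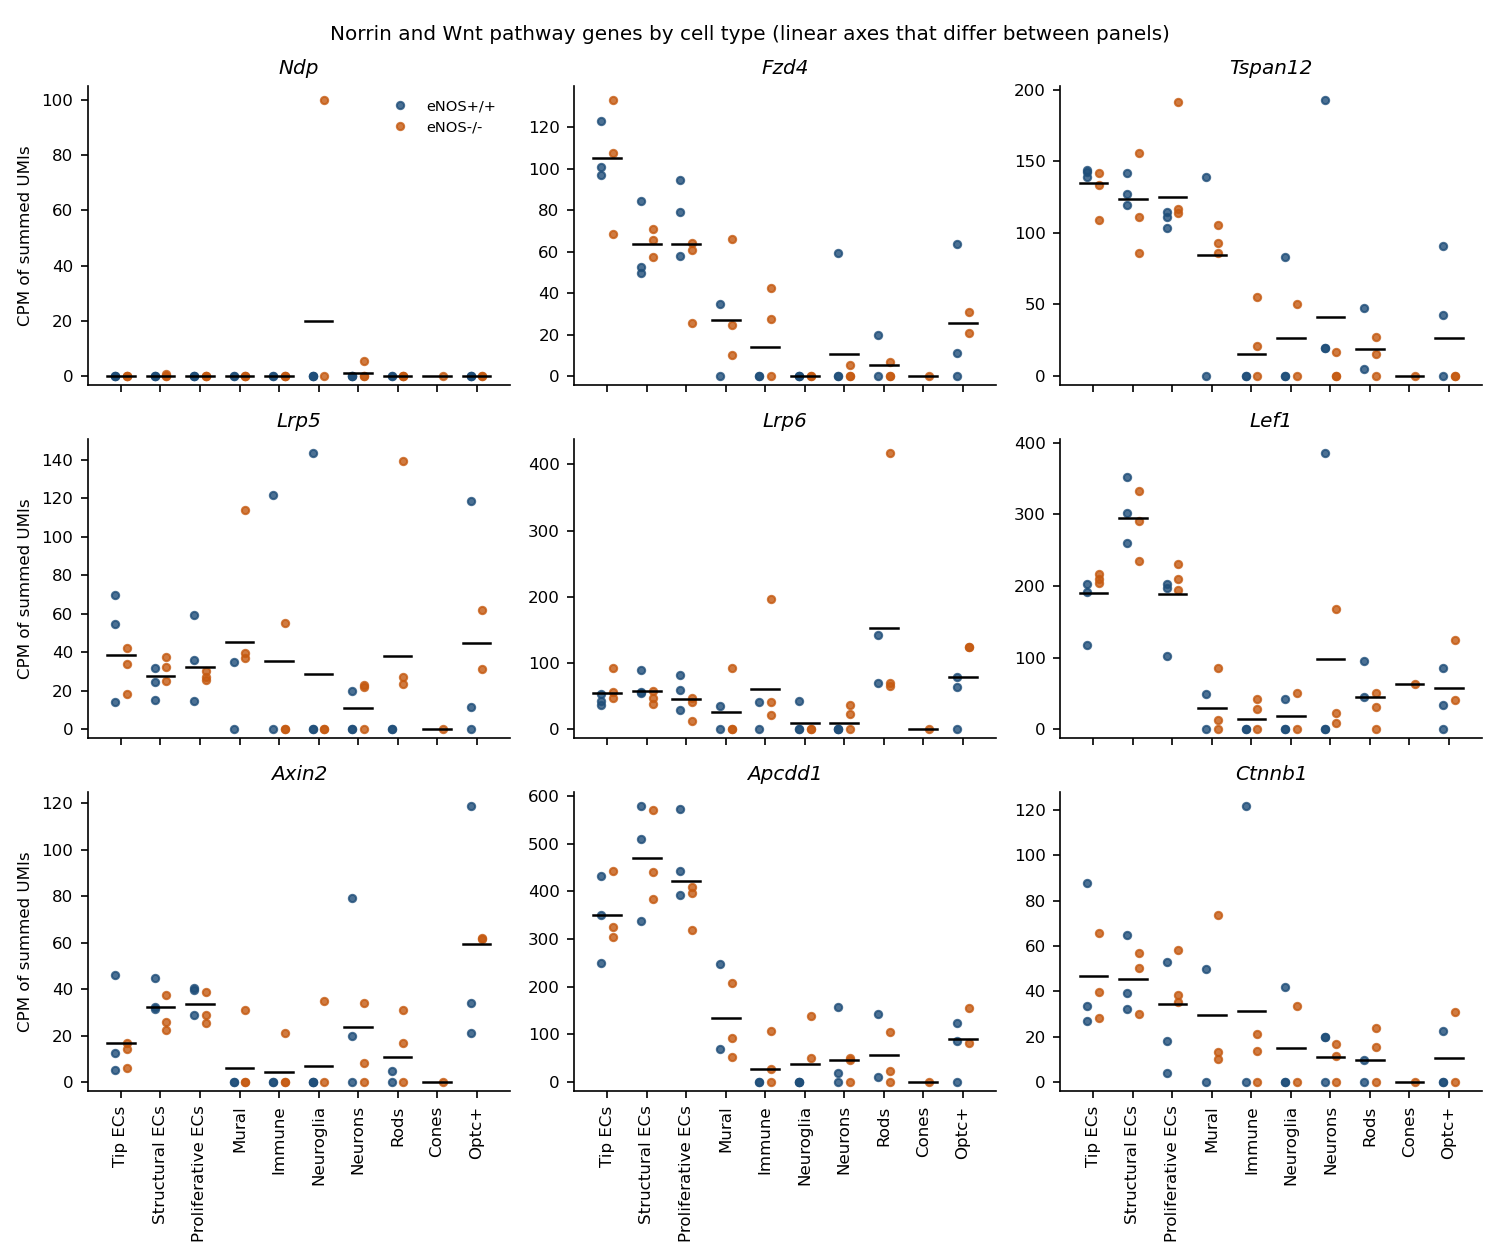
Level of each gene (CPM, linear axes that differ between panels) in the 10 cell types. Dots are libraries with at least 10 cells of the type, blue for eNOS+/+ and orange for eNOS-/-, and the black line is their mean. The means of the 3 EC subtypes lie above those of the other types for Fzd4, Tspan12, Lef1 and Apcdd1. They also do for Ctnnb1, narrowly, with 34.6 CPM in Proliferative ECs and 31.4 CPM in Immune cells. Ndp has 1 dot clearly above 0, at 100 CPM in Neuroglia of eNOS-/- replicate 2.

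Depth differed between the subtypes, with medians of 1007 UMIs a cell in Tip, 491 in Structural and 963.5 in Proliferative ECs, and it set the share of cells with a UMI. At full depth 21.3% of Tip ECs and 18.5% of Structural ECs had a UMI of Lef1. When each cell was drawn down to 500 UMIs, leaving out 337 Tip ECs and 1688 Structural ECs with fewer, the shares were 7.97% and 11.4%. For Apcdd1 the shares went from 29.9% and 26.3% at full depth to 14.9% and 21.0%. The order of the shares at equal depth was that of the CPM, and at full depth it was not. Drawn down, Axin2 was found in 0.367% of Tip, 1.15% of Structural and 2.35% of Proliferative ECs, and Fzd4 in 5.13%, 3.04% and 2.97%. In the sums over cells with at least 500 UMIs, the ratios were 1.63 for Fzd4 (Tip over Structural) and 1.55, 1.96 and 1.39 for Lef1, Axin2 and Apcdd1 (Structural over Tip).

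The other pathway genes were read from a list of 94 genes in 10 groups by role, of which 70 were in the table and 46 had at least 100 UMIs. Of the 29 with at least 200 UMIs in ECs, 8 were higher in Structural than in Tip ECs in all 6 libraries and 2 were higher in Tip ECs, and the median ratio of Structural to Tip ECs was 1.18. Over all 6264 genes of that depth the median ratio was 1.05, with 9.77% and 8.57% of genes in the respective directions. Among general target genes, Tnfrsf19, a receptor of the tumour necrosis factor receptor family, was at 19.5 CPM in Tip, 71.9 in Structural and 59.3 in Proliferative ECs, and Structural ECs were above Tip ECs in 6 of 6 libraries. Nkd1, an inhibitor that the pathway induces, was at 18.4, 16.0 and 16.8 CPM in Tip ECs of eNOS+/+ and at 14.0, 2.79 and 14.0 CPM in those of eNOS-/-. In Structural ECs it was at 84.8, 76.9 and 57.9 CPM and at 80.3, 35.8 and 78.5 CPM, a 5.05-fold difference of the means with no overlap. Nkd1 was named after its values had been seen. Ccnd1, which encodes cyclin D1 and is a target of many other signals too, had the opposite order, with 312 ± 48.6 CPM in Tip and 153 ± 49.2 in Structural ECs (SD, n = 6), higher in Tip ECs in 6 of 6 libraries.

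Among the 10 endothelial genes known to depend on Norrin or Wnt signals, 5 were higher in Structural than in Tip ECs in all 6 libraries (9.77% of all genes) and 0 were higher in Tip ECs. One of the 5 is Plvap, which these signals are known to repress, so the count mixes induced and repressed genes. Slc2a1, the glucose transporter of barrier endothelium, was at 694 ± 113 CPM in Tip, 1252 ± 185 in Structural and 849 ± 100 in Proliferative ECs (SD, n = 6). Cldn5, a tight junction gene, lay at 1571, 1666 and 1417 CPM in the same order. Dkk2, which encodes a secreted modulator of Lrp5 and Lrp6, was at 14.9 CPM in Tip, 82.2 in Structural and 19.6 in Proliferative ECs, and Structural ECs were above Tip ECs in 6 of 6 libraries. Besides Ccnd1, the other list gene higher in Tip than in Structural ECs in all 6 libraries was Apc, a part of the complex that degrades beta-catenin. It was at 132 CPM in Tip and 105 CPM in Structural ECs, and it was named after its values had been seen. Unlike Fzd4, Apc was higher in Proliferative than in Tip ECs in 2 of 6 libraries.

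**Figure D2:**
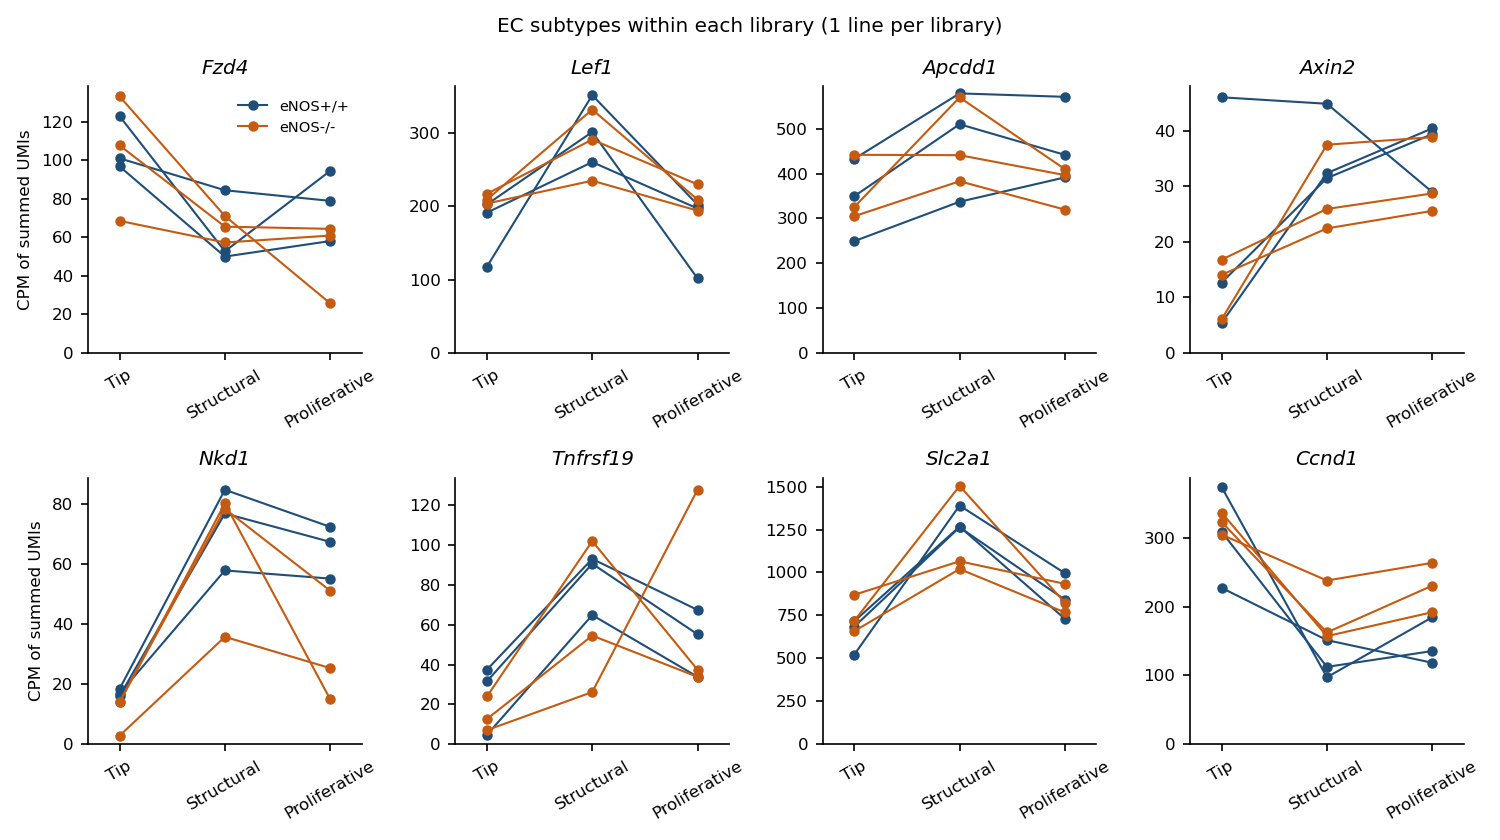
Level (CPM) of Fzd4, Lef1, Apcdd1, Axin2, Nkd1, Tnfrsf19, Slc2a1 and Ccnd1 in Tip, Structural and Proliferative ECs, with 1 line for each of the 6 libraries, coloured by genotype. The lines of Fzd4 and Ccnd1 start highest in Tip ECs in all 6 libraries, and those of Lef1, Nkd1, Tnfrsf19 and Slc2a1 step up from Tip to Structural ECs in all 6.

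Outside the endothelium the levels were read against RNA from ECs that could be carried into other cells. For each of the 8 genes other than Ndp, the level in a type was expressed as a percent of the level in all ECs and set beside the same percent for 10 endothelial markers. Of the 56 pairs of gene and type, 5 had a 95% exact Poisson interval that lay wholly above the percent of every endothelial marker in the type. Fzd4 was at 43.3% of its EC level in Mural cells, 34.4% in Optc+ cells, 12.4% in Rods and 12.1% in Neurons, and it had 0 UMIs in Neuroglia. Without the library with the most of its UMIs (eNOS-/- replicate 1, eNOS+/+ replicates 2, 1 and 3, in this order), these fell to 28.6%, 21.8%, 5.91% and 5.57%, from 5 to 10 UMIs in each type. Lef1 was at 19.2% of its EC level in Rods and 23.0% in Optc+ cells, and Apcdd1 at 28.9% in Mural cells and 15.3% in Rods, or 6.77% in Rods without eNOS-/- replicate 2. The endothelial markers themselves reached 56.7% in Mural cells, 43.4% in Rods and 30.4% in Optc+ cells, with medians of 21.2%, 12% and 5.86%. The levels of Fzd4, Lef1 and Apcdd1 outside ECs had intervals that reached into the range of the markers in these types. In Rods and Optc+ cells Pecam1 alone set the top of that range, and the next marker was at 16.4% (Tie1) and 8.70% (Flt1). In Optc+ cells the intervals of Fzd4, Lef1 and Apcdd1 began at 12.6%, 12.2% and 15.5%, above every marker but Pecam1. Whether these levels are RNA carried from ECs was not tested.

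The 5 pairs above the markers were of Lrp5, Lrp6 and Axin2. Lrp6 in Rods had 49 UMIs, a pooled level of 74.7 CPM (95% exact Poisson interval 55.2 to 98.7), or 141% of its EC level. By library it was at 69.1 and 143 CPM in eNOS+/+ replicates 1 and 3 and at 69.8, 64.5 and 418 CPM in the eNOS-/- libraries, the second and the last of these 5 from 3 UMIs each. It was above the EC level of its own library in 5 of 5 libraries, by little in eNOS-/- replicate 1 (59.6 CPM in its ECs). In Optc+ cells Lrp6 was at 0, 63.7 and 79.3 CPM in the eNOS+/+ libraries and at 124 and 123 CPM in eNOS-/- replicates 1 and 2, and its pooled level was 84.4 CPM (51.5 to 130) from 20 UMIs, above the ECs of the same library in 3 of 5 libraries. Axin2 in Optc+ cells was at 119, 21.2 and 34.0 CPM in eNOS+/+ and at 62.1 and 61.6 CPM in eNOS-/-, from 1 to 3 UMIs a library. Its pooled level there was 46.4 CPM (23.2 to 83.0), or 164% of its EC level, and it was above the ECs in 4 of 5 libraries.

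Lrp5 in Mural cells, the pericytes and smooth muscle cells of the vessel wall, was at 0 and 34.7 CPM in eNOS+/+ replicates 2 and 3 and at 39.5, 36.8 and 114 CPM in the eNOS-/- libraries. The pooled level was 60.5 CPM (36.4 to 94.4) from 19 UMIs, or 196% of its EC level. Of these UMIs, 11 were in eNOS-/- replicate 3, the library with the high mural markers in its ECs, and without it the level was 36.8 CPM, or 121% of that of ECs. Lrp5 in Optc+ cells rested on 7 UMIs, with 29.5 CPM and 95.7% of its EC level, or 62.6% without eNOS-/- replicate 2. Tspan12 in Mural cells was at 92.3 CPM (61.8 to 133) from 29 UMIs, or 73.5% of its EC level, and its interval reached below the highest endothelial marker. The co-receptors were thus less restricted to ECs than Fzd4, Lef1 and Apcdd1, as a description of these counts without a test.

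The share of cells with a UMI was also read at equal depth, leaving out 2380 ECs and 1087 Rods with under 500 UMIs. With cells thinned to 500 UMIs, 3.67% of the 3545 ECs kept a UMI of Fzd4, beside 0.475% of the 421 Rods, and 9.68% of ECs kept one of Lef1, beside 1.43% of Rods. For Apcdd1 the shares were 18.4% and 2.85%, and for Tspan12 5.84% and 1.43%. For Lrp6 they were 2.43% of ECs and 3.80% of Rods, so this gene alone among the 8 had the higher share in Rods. The other co-receptor, Lrp5, did not, and the difference for Lrp6 was not tested. At full depth, with medians of 682 UMIs in ECs and 361 in Rods, 6.04% of ECs and 2.79% of Rods had a UMI of Lrp6.

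**Figure D3:**
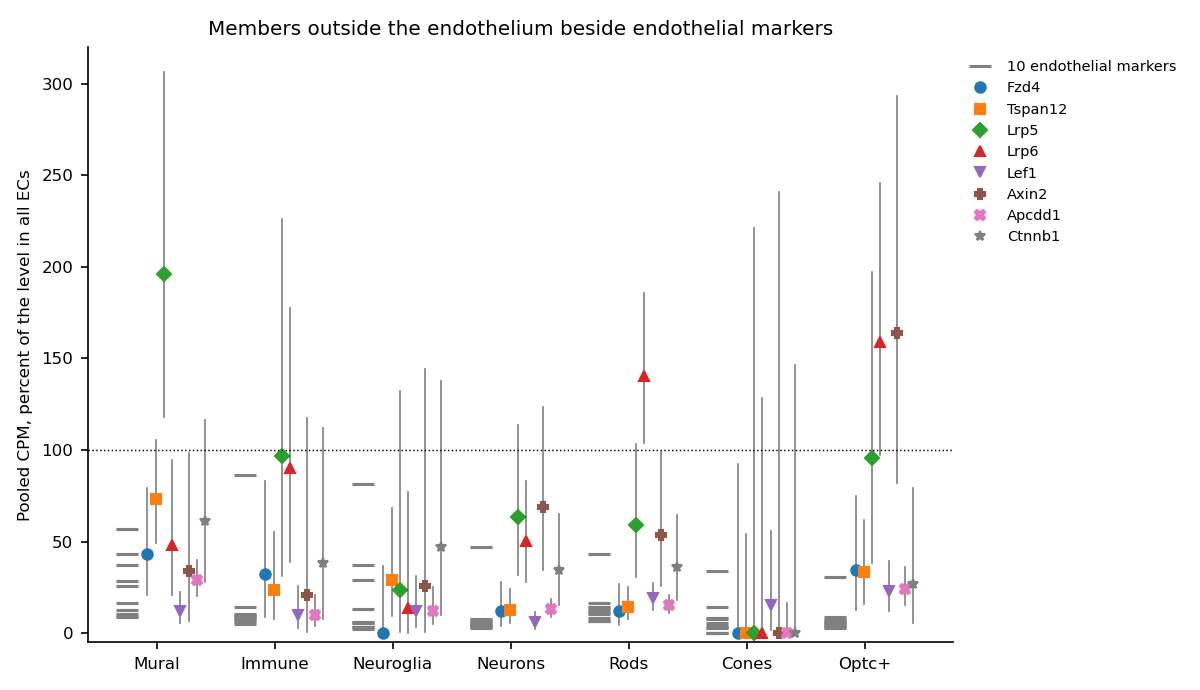
Pooled level of the 8 genes other than Ndp in the 7 types outside the endothelium, as a percent of the level in all ECs (dotted line at 100%). Symbols are the genes with 95% exact Poisson intervals and grey dashes are the 10 endothelial markers. Lrp6 in Rods (141%) and Lrp5 in Mural cells (196%) lie above 100% with their whole intervals, while Fzd4, Lef1 and Apcdd1 lie below 100% in every type.

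Genes with the profile most like that of each pathway gene were read over the 10 cell types, as Pearson's r of log2(mean CPM + 1) among 9760 genes with at least 100 UMIs. For Fzd4 they were Snn (r = 0.990), Npr1 (0.988) and Lrrc59 (0.985). For Tspan12 they were Notch4 (0.990), Tmed9 (0.984) and Lrrc58 (0.983), and for Apcdd1 Csrp2 (0.982), Pcnx and Tspan12 (0.976). Lef1 was less closely matched, by Zdhhc3 (0.958), Lrp8 (0.939) and Eogt (0.916). The nearest genes were Thap3, Herpud2 and Golph3 for Lrp5, Calcoco1 and Zfp182 for Lrp6, Lmbr1, Nipsnap1 and Vps13a for Axin2, and Cttnbp2nl, Nadk and Vasp for Ctnnb1. The 10 points share libraries and differ in depth, so these values are a description. In the order of the types, neighbours differed by more than their summed SDs in 2 of 72 pairs, Lef1 in Structural over Tip ECs and Apcdd1 in Tip ECs over Mural cells (350 ± 75.1, n = 6, against 134 ± 88.1 CPM, SD, n = 5).

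The genotypes were then compared to ask whether loss of eNOS came with a change in this pathway. None of the pathway genes passed an adjusted p of 0.05 in any fit (edgeR's quasi-likelihood test on the sums, Benjamini-Hochberg adjustment over all genes tested). In all ECs 8 of the 9 genes were tested and 0 were called, where 0.0211% of the 9483 genes were called. In Tip ECs 7 were tested and 0 called (background 0.0181%), in Structural ECs 8 and 0 (0.0264%), and in Proliferative ECs 5 and 0 (0.0434%). Below the filter on low counts were Ndp in every fit, Axin2 in Tip ECs, and Lrp5, Axin2 and Ctnnb1 in Proliferative ECs. At an unadjusted p under 0.05 the count was also 0 in each of these 4 fits, where 5.76%, 4.92%, 5.42% and 6.27% of all genes were, and DESeq2 on the same sums called 0. With so few calls among all genes, a count of 0 among these genes is not a result about them.

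The intervals of the fold changes show what sizes the data leave. In all ECs the log2 fold change of eNOS-/- over eNOS+/+ was 0.11 for Lef1 (standard error 0.19, 95% interval -0.29 to 0.50, adjusted p = 0.982). For Fzd4 it was -0.18 (standard error 0.23, -0.66 to 0.31, adjusted p = 0.977), and for Tspan12 -0.05 (standard error 0.20, -0.46 to 0.36, adjusted p = 0.990). For the target Apcdd1 it was -0.07 (standard error 0.22, -0.53 to 0.38, adjusted p = 0.986). For the less counted Axin2 it was -0.29 (-0.92 to 0.34), for Lrp5 -0.20 (-0.94 to 0.55), for Lrp6 -0.20 (-0.75 to 0.36) and for Ctnnb1 0.17 (-0.52 to 0.87). A change of 1 on the log2 scale in either direction lies outside all 8 intervals. The median over the 8 genes was -0.126, beside 0.008 over all genes tested.

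In the subtypes the intervals were wider. In Tip ECs the log2 fold changes ran from -0.72 for Lrp5 (-1.74 to 0.31) to 0.59 for Lrp6 (-0.21 to 1.40), in Structural ECs from -0.43 for Lrp6 (-1.09 to 0.23) to 0.28 for Lrp5, and in Proliferative ECs from -0.48 for Lrp6 (-1.38 to 0.43) to 0.31 for Lef1 (-0.26 to 0.88). Both co-receptors thus had estimates of opposite sign in Tip and Structural ECs. An interaction of genotype and subtype, with the library as a block, was tested jointly over the EC subtypes. It called 0 of the 8 genes and 0.0% of 7019 genes. The log2 fold change of Lrp6 was 1.01 higher in Tip than in Structural ECs, the widest such gap among the 8. The p of Lrp6 also covers the difference of Proliferative from Structural ECs and does not test this gap alone (unadjusted p = 0.0593, adjusted p = 0.9996, edgeR). At an unadjusted p under 0.05 the interaction found 0 of the 8 and 3.48% of all genes. Without eNOS-/- replicate 2 the unadjusted p of Lrp6 was 0.0247 (edgeR). In that fit 142 of 6362 genes were under 0.05 and 0 were called.

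Lef1 in Tip ECs was the 1 case among the 9 genes and 4 EC groups in which the genotypes did not overlap. Its level was 203, 118 and 192 CPM in eNOS+/+ and 209, 204 and 217 CPM in eNOS-/-, with means of 171 ± 46.3 and 210 ± 6.73 CPM (SD, n = 3). The two-sided exact permutation test gave p = 0.1, the smallest that 3 against 3 can give, and 10.3% of all genes tested in Tip ECs did not overlap either. The fitted log2 fold change was 0.27 (-0.28 to 0.83), and without eNOS+/+ replicate 2, the low library, it was 0.08.

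**Figure D4:**
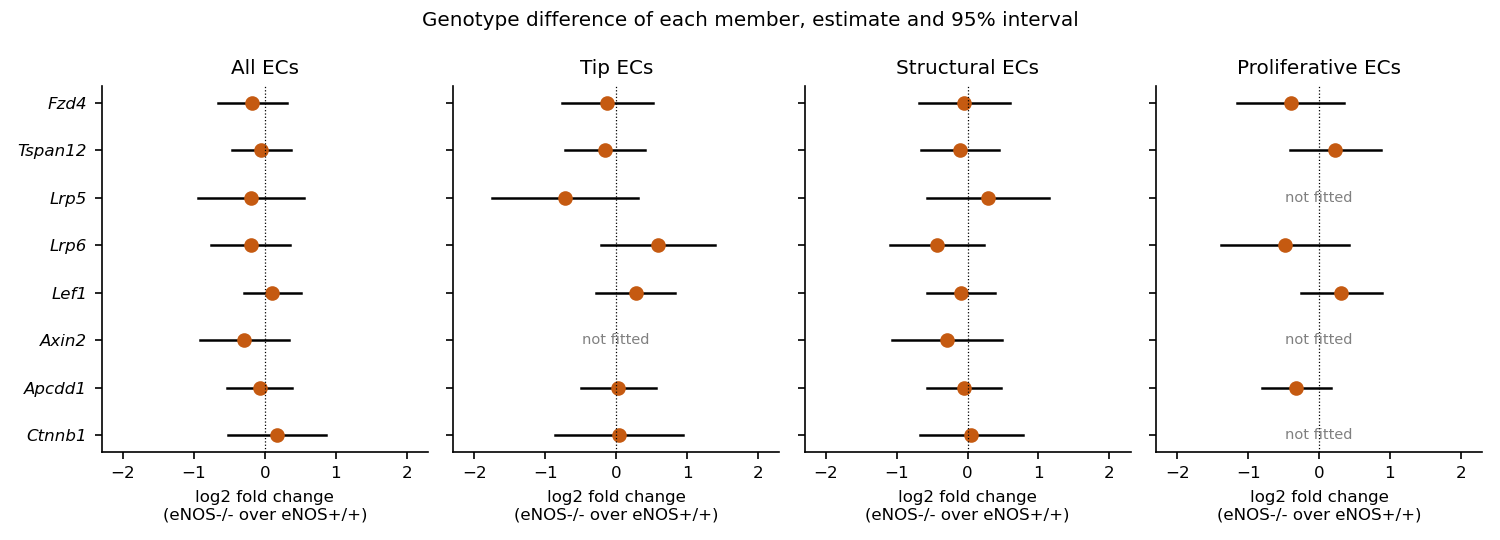
Log2 fold change of eNOS-/- over eNOS+/+ (points) with 95% intervals (lines) for the 8 genes other than Ndp in all ECs and the 3 EC subtypes, and "not fitted" where a gene was below the filter on low counts. Every interval crosses 0. In all ECs the intervals of all 8 genes stay within 1 on either side of 0, and in the subtypes some reach further.

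Outside the endothelium few of the genes had enough UMIs to be tested. Apcdd1 in Mural cells had a log2 fold change of -0.19 (-1.90 to 1.52), with 0.0% of 1973 genes called in that fit. Its sign was not stable, at 0.14 with the replicate block, 0.87 when eNOS+/+ replicate 2 was left out and -0.86 when eNOS+/+ replicate 3 was. In Rods, Lrp6 was at 0.02 (-1.68 to 1.72) and Apcdd1 at 1.04 (-1.08 to 3.17), with 0.032% of 3121 genes called. Without eNOS+/+ replicate 1 they were at -0.54 and -0.73, and Apcdd1 was at 2.67 without eNOS+/+ replicate 3 (adjusted p = 0.998, edgeR), so 1 library decided these values. In both fits 1 eNOS+/+ library with under 10 cells was left out. Optc+ cells had 0 of the 9 genes above the filter, in a fit that called 2.06% of its 1118 genes. Immune cells, Neuroglia and Neurons also had 0 of them above it, and Cones could not be compared.

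Of the 94 further pathway genes, 41 were tested in all ECs and 0 were called. At an unadjusted p under 0.05 none was higher in eNOS-/- (2.26% of all genes were) and 4 were lower (3.5% of all genes), and DESeq2 called 0, with 0 higher and 3 lower at that limit. These 4 were Plvap, Sox17, Foxf2 and Tle1, of which the first 3 are among the 10 endothelial genes known to respond to Norrin or Wnt signals. Those 10 mix induced genes with Plvap, a repressed one, so the lower levels of these 3 give no direction of the signal. The median log2 fold change over the 41 genes was -0.029, beside 0.008 over all genes.

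Plvap, which encodes the diaphragm protein of fenestrated vessels and is known to be repressed by Norrin and Wnt signals, was at 99.4, 99.0 and 65.0 CPM in all ECs of eNOS+/+ and at 38.0, 25.6 and 43.0 CPM in those of eNOS-/-. The groups did not overlap, as for 10.4% of all genes, and the log2 fold change was -1.35 (standard error 0.27, -1.92 to -0.78) with an adjusted p of 0.285 in edgeR's test. The fold stayed between -1.12 and -1.53 under all alternatives, while the call depended on 1 library and on the filter. Without eNOS-/- replicate 3 the adjusted p was 0.00998, with the filter on low counts removed it was 0.00195, and in DESeq2 it was 0.0514, while it was 0.9996 without eNOS-/- replicate 2. Over all genes, 102 of 10468 were called without eNOS-/- replicate 3 and 27 of 19593 with no filter, beside 2 of 9483 in the main fit. In Structural ECs Plvap was at 140, 150 and 89.4 CPM in eNOS+/+ and at 50.6, 34.0 and 48.6 CPM in eNOS-/- (log2 fold change -1.51, adjusted p = 0.181, edgeR). It was called there with the replicate block (-1.55, adjusted p = 0.0199), with no filter (adjusted p = 0.00431) and without eNOS-/- replicate 3 (adjusted p = 0.0362), and not by DESeq2 (adjusted p = 0.0583). The fits that called it called 7 of 7577, 29 of 18692 and 45 of 8828 genes, in this order, beside 2 of 7577 in the main fit. In Tip ECs Plvap was at 78.3, 96.1 and 44.2 CPM and at 11.97, 27.9 and 35.1 CPM (-1.57, adjusted p = 0.558), so the order of the genotypes was the same in Tip and Structural ECs. In Proliferative ECs it was below the filter on low counts, and with no filter its log2 fold change was -0.645 (adjusted p = 0.799, edgeR).

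Sox17, an endothelial transcription factor, was at 150, 239 and 271 CPM in eNOS+/+ and at 132, 108 and 201 CPM in eNOS-/- (log2 fold change -0.63, adjusted p = 0.837, edgeR). Foxf2, also a transcription factor of the vessel wall, was at 147, 235 and 168 CPM in eNOS+/+ and at 121, 84.9 and 172 CPM in eNOS-/- (-0.58, adjusted p = 0.855). Both genes overlapped between the genotypes, and Foxf2 was called in Tip ECs when eNOS-/- replicate 3 was left out (log2 fold change -1.29, adjusted p = 0.0356). That fit called 25 of 7076 genes, beside 1 of 5510 in the main fit. Ccnd1 had the smallest p in the higher direction (log2 fold change 0.35, adjusted p = 0.906). It was at 170, 206 and 169 CPM in eNOS+/+ and 217, 264 and 215 CPM in eNOS-/-, which did not overlap, as for 10.4% of all genes. Next were Abcb1a, a drug transporter of the barrier (0.32, adjusted p = 0.928), and Dkk2 (0.54, adjusted p = 0.958). In Tip, Structural and Proliferative ECs 26, 35 and 24 genes of the list were tested and 0 were called by edgeR or DESeq2, with 1 higher and 3 lower, 1 higher and 3 lower, and 1 higher and 1 lower at an unadjusted p under 0.05 (4.92%, 5.42% and 6.27% of all genes in either direction). In Tip ECs the higher one was Abcb1a, at 166, 160 and 236 CPM in eNOS+/+ and at 339, 386 and 323 CPM in eNOS-/- (log2 fold change 0.88, 0.35 to 1.41, adjusted p = 0.558). Its groups did not overlap, as for 10.3% of all genes in Tip ECs.

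Nkd1 in Proliferative ECs was one of these. Its level there was 72.5, 67.5 and 55.2 CPM in eNOS+/+ and 14.96, 25.4 and 51.2 CPM in eNOS-/-, which did not overlap, as for 10.8% of all genes in this fit. The log2 fold change was -1.47 (standard error 0.48, -2.46 to -0.48, adjusted p = 0.508 in edgeR's test), and without eNOS-/- replicate 3 the adjusted p was 0.0446. Without that library 74 of 5237 genes were called, beside 2 of 4607 in the main fit. The gene was named after its values had been seen. The targets Lef1, Axin2 and Apcdd1 did not show this order in Proliferative ECs. Lef1 was at 102, 202 and 197 CPM in eNOS+/+ and at 209, 194 and 230 CPM in eNOS-/-. Axin2 was at 29.0, 40.5 and 39.4 CPM and at 38.9, 28.7 and 25.6 CPM, and Apcdd1 at 391, 571 and 442 CPM and at 410, 319 and 397 CPM. In all 3 the genotypes overlapped.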

How the data were processed

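Retinal cells were measured by Drop-seq in 6 libraries. Per the study's methods, the authors aligned reads with kb-python to GRCm38, filtered cells in Seurat 3, assigned cell types and deposited UMI counts without normalization and an annotation of each cell. The annotation release and the use of strand are not given in the sources used here. Of the annotation, 15 per-cell columns were not used. One of them gives the 613 cells of eNOS+/+ replicate 2 the name of eNOS+/+ replicate 1. The replicate column was followed, and these cells shared 0 barcodes with that replicate.

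UMIs were summed per cell type and replicate, and sums of at least 10 cells were used. CPM are relative to the whole sum. Genotypes were compared with edgeR 4.0.16 (filterByExpr, TMM, quasi-likelihood test) in R 4.3.3 over all genes, with Benjamini-Hochberg adjustment. Cells were also drawn down to 500 UMIs. Other steps ran in Python 3.11.15 with pandas 2.3.3, scipy 1.17.1, numpy 2.4.6, and figures with matplotlib 3.10.9. Models were tested on simulated data. Coordinates are those of GENCODE M21 symbols in GRCm38. In a chi-square test of counts, pairs of libraries of the same genotype gave 4.09 to 7.47 per gene, where a copy would give about 1, and 3 pairs of libraries shared 1 barcode each. Doublets were not called again, and the deposited annotation was taken as it is.

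The genes and lists were chosen with earlier results of these data known. Named were the 9 genes, the 2 list genes with the most UMIs in each role, the 3 of smallest p in each direction in all ECs and the 3 most similar profiles. Of these, those with a result to describe appear in the text, and 1 is not reported here. Alternatives were DESeq2 1.42.0, RLE scaling, no filter, leaving out each library, a replicate block, cells with at least 500 UMIs, sums of every size, a pseudocount of 10 and, added after seeing the data, 1 cell per barcode family.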

Additional observations from a re-analysis of the deposited data

Results flagged for a closer look

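Of the 32 sets of 6 libraries formed by 8 genes and 4 EC groups, 7 had 1 library far from the others by Dixon's gap test, which flags about 1 in 20 sets by chance. The 6 libraries of a set mix both genotypes. In Tip ECs, Tspan12 was lowest in eNOS-/- replicate 2, at 109 CPM beside 133 to 144 CPM in the others. Lrp6 was highest there in eNOS-/- replicate 1, at 91.7 CPM beside 36.9 to 56.1 CPM. Lef1 was lowest in Tip ECs of eNOS+/+ replicate 2, at 117.5 CPM beside 191.5 to 217.4 CPM. Axin2 was highest in Tip ECs of eNOS+/+ replicate 1, at 46.1 CPM (10 UMIs) beside 5.34 to 16.8 CPM. In Structural ECs, Lrp6 was highest in eNOS+/+ replicate 2, at 89.1 CPM beside 37.4 to 56.7 CPM. In Proliferative ECs, Tspan12 was highest in eNOS-/- replicate 3, at 192 CPM beside 104 to 117 CPM, and Lef1 was lowest in eNOS+/+ replicate 1, at 101.5 CPM beside 194 to 230 CPM. The cause of these values was not tested.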

How the results depend on the processing

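The number of the 9 genes past an adjusted p of 0.05 was 0 in the 81 alternative fits that tested any of them, and 41 further fits tested none, and their adjusted p ranged from 0.736 to 1.0 in all ECs, 0.713 to 1.0 in Tip, 0.764 to 1.0 in Structural and 0.538 to 1.0 in Proliferative ECs. An unadjusted p under 0.05 was seen in these EC groups for Ctnnb1 in all ECs (log2 fold change 0.69) and Lrp5 in Tip ECs (-1.10), each without eNOS+/+ replicate 1, and for Lrp6 in Tip ECs with cells of at least 500 UMIs (1.09). Estimates near 0 changed sign. With cells of at least 500 UMIs these were Tspan12 in all ECs (0.00), Ctnnb1 in Tip (-0.03) and Apcdd1 in Structural ECs (0.01), and with DESeq2 Ctnnb1 in Tip ECs (-0.05). The replicate block gave -0.11 for Ctnnb1 in Tip, 0.07 for Fzd4 and -0.02 for Ctnnb1 in Structural ECs. Leaving out 1 library moved 24 of 166 estimates across 0. The ranges were -0.14 to 0.03 for Tspan12, -0.36 to 0.02 for Lrp6, -0.05 to 0.69 for Ctnnb1, -0.23 to 0.08 for Apcdd1 and -0.53 to 0.14 for Lrp5 in all ECs. In Tip ECs they were -0.28 to 0.15 for Fzd4, -0.22 to 0.65 for Ctnnb1 and -0.14 to 0.20 for Apcdd1. In Structural ECs they were -0.22 to 0.03 for Lef1, -0.36 to 0.02 for Tspan12, -0.20 to 0.31 for Fzd4, -0.12 to 0.36 for Ctnnb1 and -0.24 to 0.10 for Apcdd1. The cause was not tested.

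The ratios of Tip over Structural ECs for Fzd4 and of Structural over Tip ECs for Lef1, Axin2 and Apcdd1 kept their direction with pooled UMIs, with cells of at least 500 UMIs and without each library, with leave-one-out ranges of 1.55 to 1.79 for Fzd4, 1.39 to 1.64 for Lef1, 1.66 to 2.74 for Axin2 and 1.27 to 1.43 for Apcdd1. Over all genes, calls in all ECs went from 2 to 27 with no filter and to 102 without eNOS-/- replicate 3, in Tip ECs from 1 to 6 and 25, and without 1 library they ran from 0 to 45 in Structural and 0 to 74 in Proliferative ECs. In Structural and Proliferative ECs the replicate block gave 7 calls each in place of 2, and in Optc+ cells 1 in place of 23. Same-numbered libraries had correlations of deviations of 0.132, -0.07 and 0.114, so the numbers were not taken as pairs. Drawing cells down, or counting 1 cell per barcode family, moved 35 of 72 shares of cells beyond their interval. With a pseudocount of 10, 16 of 24 nearest genes were the same. Cones could not be compared, and Immune cells and Rods could not with cells of at least 500 UMIs. Depth limits Ndp and Axin2 most.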

Other observations

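Wnt5a, a ligand known for signals that do not use beta-catenin, had 133 UMIs in all cells and pooled levels of 119 CPM in Neurons, 75.9 CPM in Optc+ cells and 3.77 CPM in ECs. Wnt4 had 58 UMIs. Of the ligand secretion genes, Wls, the carrier of Wnt proteins to the cell surface, was at 299 CPM in Mural cells and 118 CPM in ECs, and Porcn had 66 UMIs. The R-spondins Rspo2 and Rspo1, which strengthen Wnt signals, had 8 and 2 UMIs.

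Among other Frizzled receptors, Fzd6 was at 295 CPM in ECs and at 88.6 CPM or less in the other types, and Fzd1 was at 92.8 CPM in Optc+ cells and 10.7 CPM in ECs. Dkk3, of the Dickkopf family and also on the list of Müller glia markers, was at 2875 CPM in Neuroglia, 2269 CPM in Optc+ cells and 9.23 CPM in ECs. Znrf3, which removes Frizzled receptors from the membrane, had 3950 UMIs and lay between 250.8 and 569.8 CPM in all types. Tcf7l2, a TCF/LEF factor, was at 198 CPM in Neuroglia, 131 CPM in Optc+ cells and 70.1 CPM in ECs. The 10 cell types were clustered on the same UMIs, and these are pooled values with no test.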
